A study of Mus musculus with 2 samples.

Results

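A small group of macrophages in the liver carried *Cx3cr1* or *Olfml3* together with the C1q genes. They held few transcripts of the Kupffer cell genes *Clec4f* and *Cd5l*, and these cells are described here. A cell was a member when it held at least 5 unique molecular identifiers (UMIs, each standing for 1 captured mRNA molecule) of *C1qa*, *C1qb* and *C1qc* together, at least 1 of *Cx3cr1* or *Olfml3*, at most 5 of *Clec4f* and *Cd5l* together, at most 1 of *Gpnmb* and none of the lymphocyte genes *Cd3e* and *Cd79a*. Of 7919 cells with at least 500 UMIs and 200 genes, 99 met these limits, 69 in the NASH library and 30 in the control library. The members were thus chosen by the counts of these genes in these same cells, and the levels of its genes are given as descriptions.

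The libraries came from male C57BL/6 mice that were 8 weeks old at the start. NASH (non-alcoholic steatohepatitis) was induced by 6 weeks of a diet deficient in methionine and choline (MCD), and control mice received chow. This diet is a model of a fatty, inflamed liver that lacks the obesity and insulin resistance of the human disease. Non-parenchymal cells, the liver cells other than hepatocytes, were pooled from 3 mice per diet and captured as 1 single-cell library each, so no difference between diets has a replicate check, no test was possible, and every interval below covers counting error only.

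Kupffer cells are the resident macrophages of the liver sinusoids. They clear particles from portal blood, and in the mouse they are known by the lectin receptor Clec4f and the secreted scavenger protein Cd5l. Other macrophages of the liver lie under the capsule, along portal tracts and veins, or arise from blood monocytes that enter during injury. Cx3cr1 is the receptor of the membrane-bound chemokine fractalkine and is carried by monocytes, by capsular and other tissue macrophages and by microglia, whereas the C1q genes encode the recognition molecule of the classical complement pathway and are made by mature tissue macrophages. Olfml3 is a secreted glycoprotein known as a marker of microglia, and Gdf3 is a growth factor of the TGF-beta family.

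The gene columns of both files ended alphabetically at *Rad54l2*, so marker genes with later names, such as *Timd4*, *Vsig4*, *Trem2* and *Spp1*, were not analysed here. The NASH library held 3893 cells and 9326723 UMIs, and the control library held 4336 cells and 11452972 UMIs. After filtering, 3710 NASH cells and 4209 control cells remained, with median depths of 1654 and 1683 UMIs. The members were deeper than the average cell, with 922 to 9595 UMIs (median 3808) in NASH and 1019 to 10196 (median 4070) in control. A total of 21 cell numbers occurred in both libraries.

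The group was rare in both livers and its share was larger in the NASH library. It made up 1.86% of NASH cells (95% exact Clopper-Pearson interval 1.45 to 2.35) and 0.713% of control cells (0.481 to 1.02), a ratio of 2.61. Among cells with at least 5 C1q UMIs, members were 10.2% of 679 NASH cells (7.99 to 12.7) and 5.15% of 583 control cells (3.50 to 7.26). With 1 library per diet, a difference between mice, pools or diets cannot be told apart. Leaving out every cell with 3 or more UMIs of another cell type's markers reduced the group to 5 NASH and 8 control cells, and the ratio of shares then turned to 0.899. Of the members, 64 of 69 in NASH and 17 of 30 in control held 3 or more endothelial UMIs. How much of this was free RNA, released by broken cells, was not tested.

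The limits of the rule acted differently in the 2 libraries. Of the C1q cells, 178 in NASH and 102 in control carried *Cx3cr1* or *Olfml3*, and the Kupffer limit left 114 and 36 of them. The *Gpnmb* limit then left 75 NASH and 34 control cells. *Gpnmb* encodes a transmembrane glycoprotein of lipid-laden macrophages, so the members are by construction the *Gpnmb*-low remainder. Just inside the limits stood 9 NASH and 2 control members with 5 to 9 C1q UMIs, 13 and 5 with a single UMI of *Cx3cr1* or *Olfml3*, and 8 and 4 with 1 UMI of *Gpnmb*. Just outside stood 22 NASH and 4 control cells with 3 or 4 C1q UMIs, and 4 and 1 with 2 UMIs of *Gpnmb*.

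The Kupffer limit fell in a thinly filled range of counts. Among cells that met every other limit, *Clec4f* and *Cd5l* summed to 0 in 41 NASH and 19 control cells, to 1 in 18 and 8, and to 2 to 5 in 10 and 3. Only 11 NASH and 7 control cells held 6 to 20 UMIs, while 40 and 51 cells held more than 20. The limit fixes a low level in the members. *Clec4f* stood at 82.7 and 47.3 CPM (UMIs of the gene per 1000000 UMIs of all analysed genes) in NASH and control members, against 89.6 and 130.1 in NASH and control B cells.

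**Figure D1:**
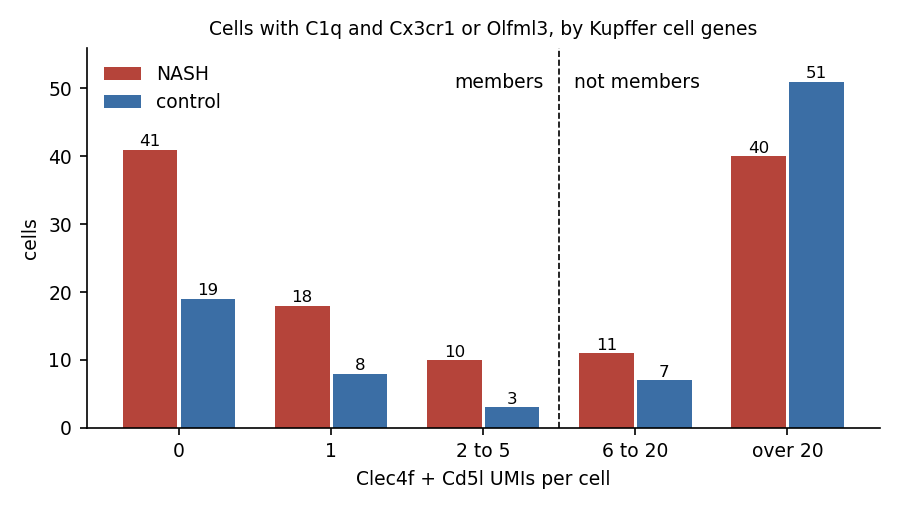
Number of cells (vertical axis) by the summed UMIs of Clec4f and Cd5l (horizontal axis, binned) among cells that met every other limit, with NASH bars left of control bars and a dashed line at the members' limit of 5. Most members held 0 or 1 UMI, few cells held 6 to 20, and 40 NASH and 51 control cells held more than 20.

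Few B cells and endothelial cells reached the C1q limit. Capture wells also take up RNA released by broken cells, and 34.8% of 198 NASH B cells and 35.3% of 700 control B cells held at least 1 C1q UMI. At 5 or more C1q UMIs the counts were 1 of 198 and 16 of 700 B cells, and with *Cx3cr1* or *Olfml3* added they were 1 and 1. Of endothelial cells, 18 of 1564 in NASH and 10 of 1229 in control held 5 or more C1q UMIs, and 2 and 2 met both limits. The B cells (median 1163 and 1192.5 UMIs) and endothelial cells (1382.5 and 1659) were shallower than the members.

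The members were checked against general macrophage genes, most of which the rule did not use. *Csf1r*, the receptor of the macrophage growth factor M-CSF, was found in 97.1% of NASH and 93.3% of control members. *Adgre1*, which encodes F4/80, was found in 87.0% and 83.3%. *Lyz2*, which encodes lysozyme, was found in 98.6% and 100%. In NASH and control B cells the shares were 11.1% and 10.6% for *Csf1r*, 3.03% and 2.29% for *Adgre1*, and 21.2% and 14.3% for *Lyz2*. The macrophage label was therefore met. Of the Kupffer genes outside the rule, *Marco* was close to absent, but *Id3* stood at 1222 and 1528 CPM in NASH and control members. *Hmox1* was found in 37 of 69 NASH and 12 of 30 control members. *Marco*, a scavenger receptor, was found in 2 of 69 NASH members and 0 of 30 control members, and in 52.7% of 469 NASH and 64.9% of 459 control Kupffer cells. In B cells *Marco* was found in 3.03% and 3.14%, so the members were no higher than this background.

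*Cx3cr1* and *Olfml3* were unevenly shared. *Cx3cr1* was detected in all 69 NASH members and in 27 of 30 control members, and *Olfml3* in 25 of 69 and 18 of 30. In B cells *Cx3cr1* was found in 1.52% and 0.286% and *Olfml3* in 0 of 198 NASH B cells, which allows a share of up to 1.52%, and in 1.00% of control B cells, and with members reduced to 1000 UMIs *Olfml3* was found in 17.2% and 26.7%. Every NASH member with *Olfml3* also had *Cx3cr1*, and 3 control members had *Olfml3* alone. In summed counts *Cx3cr1* stood at 1593 CPM in NASH members and 2458 CPM in control members, against 35.7 and 14.7 CPM in Kupffer cells and 580 and 477 CPM in monocytes. *Olfml3* stood at 237 and 394 CPM in members, against 22.8 and 19.1 CPM in Kupffer cells, and at 2.29 and 0 CPM in monocytes. Monocytes were cells with fewer than 5 C1q UMIs, at least 3 UMIs of *Ly6c2*, *Ccr2* and *F13a1* together and at least 1 of *Csf1r*. These limits used no dendritic cell gene, so dendritic cells were not excluded. Kupffer cells were C1q cells with more than 5 UMIs of *Clec4f* and *Cd5l*.

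*Gdf3*, the marker that the rule did not use, was found in 16 of 69 NASH and 6 of 30 control members (17.2% and 6.67% at 1000 UMIs per cell), and in 0.505% and 0.143% of NASH and control B cells. Its level was 212 CPM in NASH and 142 CPM in control members. Kupffer cells had 11.6 and 22.5 CPM of *Gdf3*, and monocytes had 120 and 7.49 CPM. *Gdf3* and *Olfml3* occurred together in 8 NASH and 4 control members, so most members carried at most 1 of them.

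Antigen presentation genes gave the members their most abundant transcripts. MHC class II molecules display peptides to CD4 T cells. The chains H2-Aa, H2-Ab1 and H2-Eb1 form the peptide-binding molecules, Cd74 is the invariant chain that escorts them, H2-DMa and H2-DMb1 help to load peptide, and Ciita is the master activator of their transcription. Of the 20 genes with the highest level in the members, *Cd74*, *H2-Ab1*, *H2-Aa* and *H2-Eb1* stood at places 1, 4, 5 and 7. Levels of different genes are not compared further here, since the counts carry no length correction.

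The promoters of these genes are known for a shared module whose Y box contains an inverted CCAAT sequence bound by the factor NF-Y. The letters GATTGG were looked for on both strands in the 100 bases before each gene's start, in RefSeq promoters of the build GRCm38.p6. They were found in 6 of the 10 listed antigen presentation genes with a promoter in the table (*H2-Aa*, *H2-Eb1*, *H2-DMb1*, *H2-DMb2*, *H2-Oa* and *H2-Ob*) and in 8.62% of all 32851 promoters of the same length. The 3 printed here belong to genes whose counts carried the difference from Kupffer cells. They are shown 5′ to 3′ on the strand of the gene, and capitals mark GATTGG or, on the other strand, CCAATC.
H2-Aa, chr17:34287824-34287923, minus strand: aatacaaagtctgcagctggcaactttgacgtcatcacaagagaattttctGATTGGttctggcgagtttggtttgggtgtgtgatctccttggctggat
H2-Eb1, chr17:34305767-34305866, plus strand: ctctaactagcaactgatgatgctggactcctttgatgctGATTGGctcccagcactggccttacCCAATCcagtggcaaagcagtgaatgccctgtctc
H2-DMb1, chr17:34153091-34153190, plus strand: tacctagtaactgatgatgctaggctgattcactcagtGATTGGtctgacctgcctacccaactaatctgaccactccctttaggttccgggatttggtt
The first match began 49 bases before the start of *H2-Aa*, 60 bases before that of *H2-Eb1* and 62 bases before that of *H2-DMb1*. A match is a description of letters and was not tested as a site.

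These genes were higher in the members than in Kupffer cells of the same library. *H2-Aa* stood at 14682 CPM in NASH and 17771 CPM in control members, against 5277 and 5671 CPM in Kupffer cells, a log2 ratio of 1.48 in NASH and 1.65 in control. *H2-Eb1* stood at 10695 and 13305 CPM in members, against 3049 and 3402 CPM in Kupffer cells, with log2 ratios of 1.81 and 1.97. For *Cd74* the ratios were 1.27 and 1.40, and for *Ciita* they were 2.00 and 2.39. Of 14 measured genes of the antigen presentation list, 8 were at least 2-fold higher in the members in both libraries and none was 2-fold lower. The list's median log2 ratio was 1.07 in NASH and 1.09 in control, beside 0.08 and 0.09 over all genes compared.

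The difference was also seen cell by cell. *H2-Aa*, *H2-Ab1*, *H2-Eb1* and *Cd74* together took a median of 6.57% of a member's UMIs in NASH (0.286 to 11.4) and 8.34% in control (0.0665 to 10.8). In Kupffer cells the medians were 2.01% and 2.55%, and in monocytes 3.25% and 0.801%. In *Gpnmb*-positive macrophages, C1q cells with at least 2 *Gpnmb* UMIs, they were 4.45% in NASH and 6.55% in the 2 control cells. None of 9 measured antigen presentation genes was 2-fold higher in the members than in these macrophages in both libraries. Against monocytes, 1 of 14 was 2-fold higher and 1 was 2-fold lower. The ranges overlapped, and a few members had almost none of these transcripts.

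**Figure D2:**
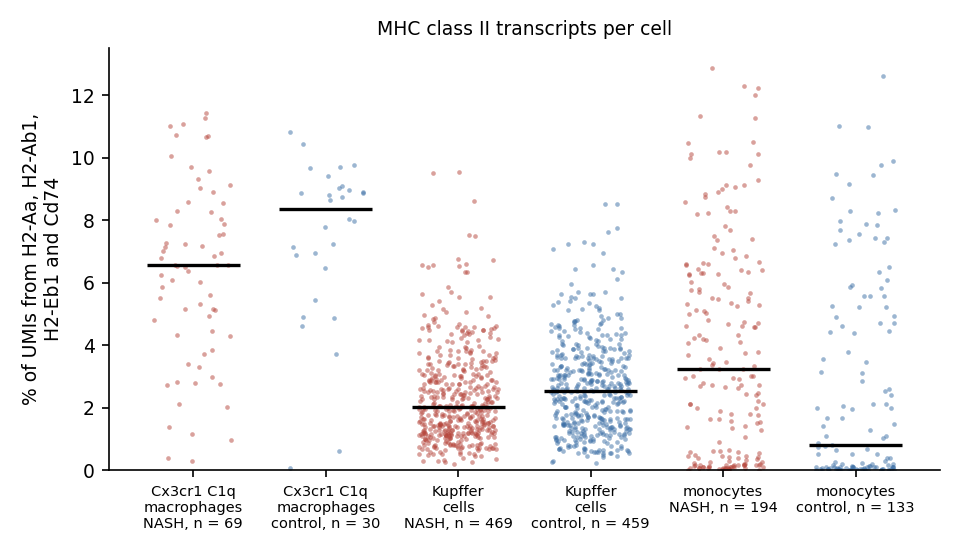
Share of each cell's UMIs from H2-Aa, H2-Ab1, H2-Eb1 and Cd74 (vertical axis, percent) in members, Kupffer cells and monocytes, NASH left of control, with a point per cell and a black line at the median. Member medians of 6.57% (NASH) and 8.34% (control) lie above the Kupffer medians of 2.01% and 2.55%, and single cells of the groups overlap.

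Against Kupffer cells, 5058 genes with at least 50 UMIs over both groups in each library were compared, in log2 ratios with 0.5 UMI added to each sum. In both libraries 187 genes (3.7%) were at least 2-fold higher in the members and 207 (4.09%) at least 2-fold lower. Members and Kupffer cells were separated by counts from these same cells, so the genes describe the groups and are no test of the separation. Of the 207, 14 had no UMI in any member.

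Of the genes outside the rule that were higher in the members, *Ccr2* led, the receptor of the monocyte attractant Ccl2 that lets monocytes leave the bone marrow. *Ccr2* stood at 2358 CPM in NASH and 1891 CPM in control members, against 27.9 and 24.6 CPM in Kupffer cells and 2588 and 3350 CPM in monocytes. It was found in 75.4% of NASH and 53.3% of control members, in 6.18% and 7.41% of Kupffer cells and in 3.03% and 1.43% of B cells. With every cell reduced to 1000 UMIs the members' *Ccr2* shares were 56.2% of 64 cells in NASH and 36.7% of 30 cells in control. *Ccr2* is among the genes that chose the monocytes, so their level is in part set by that choice. No *Ccr2* UMI was found in 17 NASH and 14 control members.

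Several other genes followed *Ccr2*. *Cd93*, a C-type lectin receptor of myeloid and endothelial cells, stood at 744 and 536 CPM in NASH and control members, against 28.8 and 17.4 CPM in Kupffer cells. *Mef2c*, a transcription factor also used by microglia and B cells, stood at 183 and 354 CPM in members, against 15.0 and 18.8 CPM in Kupffer cells. *Itgax*, which encodes CD11c, had 3.42 and 4.75, and *Cxcr4*, the receptor of Cxcl12, had 3.28 and 4.53. *Ms4a7*, a membrane gene of monocyte-derived and border macrophages, had 2.71 and 2.25.

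Some chemokine and matrix genes were higher and others lower. *Ccl3* and *Ccl4* encode attractants of monocytes and T cells and had log2 ratios of 1.29 and 1.13 in NASH and 3.13 and 3.03 in control. *Pf4*, also called Cxcl4, had 2.29 and 2.99, and *Ccl9* had 2.55 and 2.72. Of 14 measured chemokine genes 5 were 2-fold higher and 2 lower, namely *Ccl24* and *Cxcl13*, with 1 to 3 UMIs per library in the members. *Mmp13*, a collagenase, had 2.36 in NASH and 6.85 in control, and *Mmp14*, a membrane-bound collagenase, had 3.78 and 2.33. Of 17 growth factor and matrix genes outside the rule, 3 were higher (*Mmp13*, *Mmp14* and *Gdf3*) and 5 lower (*Grn*, *Ecm1*, *Pdgfc*, *Igf1* and *Mmp19*), with median ratios of -0.48 in NASH and -0.94 in control.

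Part of the microglia and border-macrophage list was higher in the members and part was lower. Of 8 measured genes outside the rule, 3 were at least 2-fold higher in both libraries and 2 were lower. Among the higher were *Pf4* and *Gas6*, a bridging ligand for the phagocytic receptors Axl and Mertk, which had log2 ratios of 1.07 in NASH and 1.32 in control. Of 12 lipid-associated genes 5 were higher (*Cd9*, *Fabp5*, *Cd63*, *Itgax* and *Lgals1*) and *Ctsd*, a lysosomal protease, was lower at -1.28 and -1.88. The members therefore differed in both directions from Kupffer cells within both lists.

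Capsular macrophages of the liver and other CD11c-type myeloid cells had a list of their own, and 6 of its 10 measured genes outside the rule were at least 2-fold higher in the members than in Kupffer cells in both libraries. The 6 were *Itgax*, *Ciita*, *H2-Aa*, *H2-Ab1*, *H2-Eb1* and *Cd74*, so 5 of them were also antigen presentation genes, and none of the 10 was 2-fold lower. *Cd207*, a gene of this list that Langerhans cells also carry, had log2 ratios over Kupffer cells of 0.69 in NASH and 1.57 in control. Genes of peritoneal macrophages were nearly absent. Their defining transcription factor *Gata6* had 1 UMI in NASH members and none in control members, and *Prg4* and *Alox15* had none in either.

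Lysosomal genes were mostly lower in the members than in Kupffer cells. Of 31 measured genes 5 were at least 2-fold lower in both libraries (*Creg1*, *Ctsb*, *Ctsd*, *Ctsl* and *Grn*) and 2 were higher, *Cd63* among them, with median log2 ratios of -0.38 in NASH and -0.32 in control. *Ctsb*, the protease cathepsin B, stood at 6417 and 4900 CPM in NASH and control members, with ratios of -1.04 and -1.41. *Grn*, which encodes the lysosomal growth factor precursor progranulin, had -1.13 and -1.28. *Pltp*, a phospholipid transfer protein under LXR control, had -1.93 and -2.07, and *Fabp4*, a fatty acid binding protein of macrophages and capillary endothelium, had 1.61 and 3.47.

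Immediate early genes also stood higher. *Fos* had log2 ratios of 1.95 in NASH and 2.66 in control, and *Jun* had 1.09 and 1.98. Of 20 measured immediate early and stress genes 7 were higher in the members and 1, *Klf2*, was lower. Tissue digestion is known to induce these genes, and whether its effect differed between cell types was not tested.

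The Kupffer genes were lower almost throughout. Of 14 measured genes of the Kupffer list 13 were at least 2-fold lower in both libraries, all but *Id3*, with median log2 ratios of -3.43 and -4.78. *Cd163*, the haemoglobin scavenger receptor, had 4 UMIs in NASH and 5 in control members and ratios of -7.41 and -5.79. *Folr2*, a folate receptor, had 10 UMIs and 1 UMI, and *Fcna*, a ficolin that starts the lectin pathway of complement, had -5.52 and -6.39.

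Where no UMI was found, the difference is a bound set by 3 UMIs per library. *Marco* was at least 78.3-fold lower in control members than in control Kupffer cells, and *Pcolce2* was at least 27.4-fold lower in NASH and 16.2-fold lower in control. *Nr1h3*, which encodes the nuclear receptor LXR-alpha that maintains Kupffer cell identity, had ratios of -1.35 and -2.35. Of 14 iron and haem genes 5 were lower (*Hmox1*, *Cp*, *Cd163*, *Ncoa4* and *Blvrb*) and none higher.

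**Figure D3:**
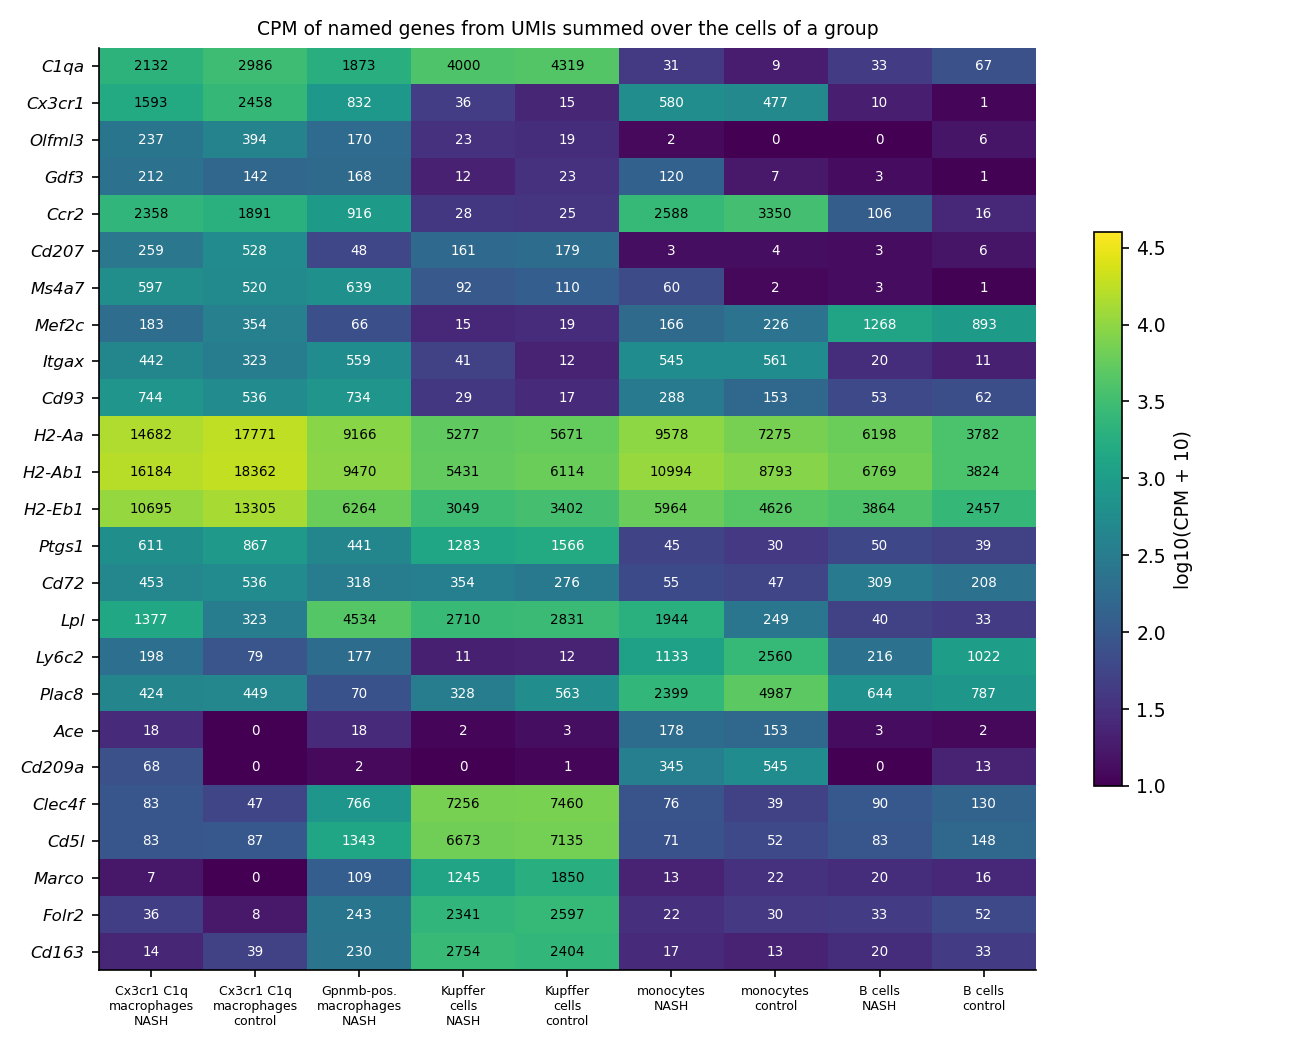
Level of 25 genes (rows) as log10(CPM + 10) in colour, in members, Kupffer cells, monocytes and B cells of the NASH and control libraries and in Gpnmb-positive macrophages of the NASH library (columns). Members combine C1q genes with Cx3cr1, Ccr2 (2358 CPM in NASH, 1891 CPM in control) and high class II levels, and their low Clec4f and Cd5l levels were set by the rule.

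The members also differed from monocytes, over 2517 genes compared in both libraries, without the genes that chose either group. Members and monocytes were separated by counts from these same cells, so the genes describe the groups and are no test of the separation. At least 2-fold higher in the members were 86 genes (3.42%), and 127 (5.05%) were at least 2-fold lower. The median log2 ratio over all genes was -0.08 in NASH and -0.20 in control, and scaling by trimmed means moved the control ratios up by 0.21, after which 100 genes were higher and 108 lower. Of the 187 genes above Kupffer cells 14 were also above monocytes and 10 were below them.

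*Cd207*, which encodes langerin, the endocytic lectin of Langerhans cells, led the genes above monocytes. It stood at 259 CPM in NASH and 528 CPM in control members, against 3.44 and 3.74 CPM in monocytes, with log2 ratios of 6.02 (4.63 to 8.54) and 6.83 (5.23 to 10.2) that rest on few monocyte UMIs. Kupffer cells were between them, at 161 and 179 CPM. The transcripts came from few cells: 10 of 69 NASH and 7 of 30 control members had any *Cd207* UMI (10.9% and 20% at 1000 UMIs per cell), and 0.505% and 0.571% of NASH and control B cells did.

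Genes of mature macrophages were also above monocytes, 5 of 11 measured genes of the general macrophage list being at least 2-fold higher in both libraries. *Apoe*, the lipoprotein ligand that macrophages use to export cholesterol, had log2 ratios over monocytes of 2.84 in NASH and 4.47 in control. *C3ar1*, the receptor of the complement fragment C3a, had 2.40 and 6.68, and *Maf*, a transcription factor of tissue macrophages, had 2.33 and 3.83. Of 15 phagocytic, scavenger and Fc receptor genes 7 were higher (*Axl*, *Msr1*, *Mrc1*, *Dab2*, *Fcgr1*, *Fcgr3* and *Fcgr4*) and none lower. *Adgre1* had 2.37 and 2.91. Endothelial genes stood above monocytes too, 8 of 12 measured genes being 2-fold higher in both libraries (median ratios 1.19 and 1.72), *Ptprb* among them at 2.16 and 2.00. The 14 endothelial-list genes summed to 5072 and 5183 CPM in NASH and control members, against 2051 and 1918 CPM in monocytes, and without the members above 1% endothelial UMIs 68 genes were higher and 122 lower than in monocytes.

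Of 20 measured transcription factors 5 were at least 2-fold lower in the members than in monocytes in both libraries, and 1, *Maf*, was higher, a share near the 3.42% over all genes. *Irf8*, a factor of monocyte and dendritic cell progenitors, had log2 ratios of -1.62 in NASH and -1.41 in control, *Klf4*, needed for monocyte differentiation, had -1.54 and -2.13, and *Nr4a1*, needed by patrolling monocytes and also an immediate early gene, had -2.30 and -3.10. *Klf2* and *Bhlhe40* were the other 2. *Pltp*, with ratios of 1.43 and 1.76, and *Mylip*, an LXR-induced regulator of the LDL receptor, with 1.03 and 1.91, were among 5 of 15 lipid handling genes above monocytes.

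Genes of monocytes and conventional dendritic cells were lower in the members than in the monocyte group, which could hold dendritic cells. In that group *H2-Aa*, *H2-Ab1*, *H2-Eb1* and *Cd74* took 0 to 12.9% of a cell's UMIs in NASH. The range in control was 0 to 12.6%. Of 11 measured genes of the monocyte list 9 were 2-fold lower, and of 8 dendritic cell genes 7 were. *Plac8*, a cysteine-rich protein of monocytes and other immature myeloid cells, had log2 ratios of -2.49 in NASH and -3.46 in control. *Cd24a* had -4.27 (-6.32 to -3.06) and -4.84 (-10.7 to -2.92), with 4 UMIs in NASH and 1 UMI in control members. *Ifitm6* had -3.33 (-4.91 to -2.30) and -4.35 (-6.85 to -3.00). *Btla*, an inhibitory receptor of lymphocytes and dendritic cells, had no UMI in a member and was at least 11.1-fold lower in NASH and 10.4-fold lower in control.

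*Gpnmb*-positive macrophages, C1q cells with at least 2 *Gpnmb* UMIs, numbered 63 in NASH and 2 in control. Of 469 genes compared 7 (1.49%) were at least 2-fold higher in the members in both libraries and 1 (0.213%) was lower, and the control side rests on the 2 cells. The lower gene was *Lpl*, which encodes lipoprotein lipase, the enzyme that releases fatty acids from lipoproteins. It stood at 1377 CPM in NASH members and 4534 CPM in NASH *Gpnmb*-positive macrophages. Higher in NASH members were *Plac8*, at 424 against 70.5 CPM, and *Cd207*, at 259 against 47.7 CPM. The other 5 were *Ptprb*, *Igfbp4*, *Fgl2*, *Mycbp2* and *Igfbp7*. *Ptprb* is an endothelial gene and had 74 and 71 of its 256 UMIs in NASH members from 2 cells. The endothelial genes summed to 5072 CPM in NASH members and 2852 CPM in NASH *Gpnmb*-positive macrophages, and without the members above 1% endothelial UMIs 5 genes were higher.

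The C1q cells with neither *Cx3cr1* nor *Olfml3* that met the other limits (50 in NASH, 28 in control) were shallower, with medians of 1931.5 and 2215 UMIs. Of 768 genes 52 (6.77%) were higher in the members and 64 (8.33%) were lower. *Adgre1* was among the higher, with log2 ratios of 2.46 and 2.56. *Clu*, *Gpr182* and *Flt4* were among the lower, and the last 2 are endothelial genes. All 14 measured endothelial genes were at least 2-fold lower in the members.

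Endothelial transcripts were present in the members too. All 14 genes of the endothelial list that no myeloid list held had a UMI in the members of each library. Their summed level was 5072 CPM in NASH and 5183 CPM in control members. They took a median of 0.155% (highest 5.45%) of a NASH member's UMIs and 0.0724% (highest 6.38%) of a control member's, and exceeded 1% in 9 NASH and 5 control members. The NASH member at 5.45% held 8 C1q UMIs and 1 of *Cx3cr1*, and the control member at 6.38% held 9 C1q UMIs and 1 of *Olfml3*, so both stood just inside the limits. The T, NK, B, plasma, neutrophil, hepatocyte, stellate and cholangiocyte lists summed to between 3.59 and 162 CPM each in NASH members and between 0 and 252 CPM each in control members, and no *Cd3e* or *Cd79a* could occur under the rule. The part of endothelial RNA in the results was not tested, and values without those 14 members are given where they differ.

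The members were not uniform, and the following divisions were chosen after the counts were seen. *Ly6c2*, *F13a1* or *Chil3*, genes of classical monocytes, were found in 20 of 69 NASH members (29.0%, interval 18.7 to 41.2) and in 4 of 30 control members (13.3%, 3.76 to 30.7). *Ly6c2* was also found in 2.02% of NASH and 10.1% of control B cells. At least 4 UMIs of *Cd207* were found in 7 NASH and 7 control members, and none of these 14 cells held *Ly6c2*, *F13a1* or *Chil3*. *Ccr2*, which also belongs to the monocyte list, was found in part of them. In the cells with *Ly6c2*, *F13a1* or *Chil3*, *Plac8* had 107 UMIs in NASH and 54 in control, against 11 and 3 UMIs in the other members. *Lilra5*, a receptor of the leukocyte immunoglobulin-like family, had 5 and 0 UMIs in them, against 70 and 75 in the other members. *Plac8* and *Lilra5* transcripts were thus mostly carried by different cells, in groups of unequal size (20 and 49 NASH, 4 and 26 control members). For *Cd207*, 14 cells are few beside shares of 29.0% and 13.3%.

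Members with *Olfml3* formed a further contrast, with 25 NASH and 18 control cells of similar depth to the rest (medians 4035 and 4097.5 UMIs, against 3688.5 and 4029). *Ccl4* had 99 and 55 UMIs in them and 23 and 10 UMIs in the members without *Olfml3*, log2 ratios of 2.68 and 1.76. *Ptgs1*, which encodes cyclooxygenase-1, had ratios of 1.47 and 1.41, and *Cd86*, a costimulatory ligand for T cells, had 1.11 and 1.54. *Plac8* had 2 and 2 UMIs in members with *Olfml3* and 116 and 55 in those without. *Crip1* had -2.81 and -1.42 and *Ccl9* had -3.06 and -2.11.

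*Ccr2* gave a division that overlapped with these. At least 5 *Ccr2* UMIs were found in 37 NASH and 12 control members, which were deeper (medians 4293 and 5066 UMIs) than the others (2806.5 and 3166.5). *Plac8* had 114 and 56 UMIs in these cells and 4 and 1 in the others. *Gbp2*, an interferon-induced GTPase, had log2 ratios of 1.82 and 3.06. *H2-M2*, a non-classical class I gene, had 3 UMIs in NASH and 1 UMI in control in these cells, against 63 and 20 in the others. Of the NASH members with *Olfml3*, 18 also carried *Ccr2*, so the divisions do not coincide.

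Between diets, 1563 genes with at least 50 UMIs over the members of both libraries were compared. In NASH members 65 genes (4.16%) were at least 2-fold higher and 29 (1.86%) at least 2-fold lower than in control members, and the median log2 ratio was 0.01. These counts are by size only. Without the members holding *Ly6c2*, *F13a1* or *Chil3*, 27 genes were higher and 19 lower in NASH members.

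*Lpl* was among the lipid-associated macrophage genes that stood higher in NASH members. *Lpl* had 383 UMIs (1377 CPM) in NASH and 41 UMIs (323 CPM) in control members, a log2 ratio of 2.08 (1.62 to 2.59). It was found in 47 of 69 NASH and 10 of 30 control members, or 53.1% and 20% with cells reduced to 1000 UMIs, and in 6.06% and 3.00% of B cells. In Kupffer cells the *Lpl* ratio between diets was -0.06, and in monocytes it was 2.96. At least 10 *Lpl* UMIs were found in 10 NASH members and in no control member, and 7 of the 10 held *Ly6c2*, *F13a1* or *Chil3*. Without all members holding those monocyte genes the *Lpl* ratio was 1.49.

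The other measured genes of the lipid-associated list were also above 0. *Capg*, an actin-capping protein, had 68 and 4 UMIs and a log2 ratio of 2.80 (1.53 to 4.87), and *Lgals3*, which encodes galectin-3, had 349 and 74 UMIs and 1.10 (0.74 to 1.49). *Ctsd* had 0.80, *Plin2*, a coat protein of lipid droplets, had 0.76, and *Cd36*, a fatty acid receptor, had 0.61. All 10 measured genes of the list were above 0 and 3 passed 2-fold, with a median of 0.69 beside 0.01 over all genes. On the separate list of lipid uptake, storage and efflux, 1 of 15 genes, *Lpl*, was 2-fold higher and 10 were above 0, with a median of 0.15. The intervals of *Cd9*, *Cd63*, *Lgals1* and *Itgax* included 0.

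**Figure D4:**
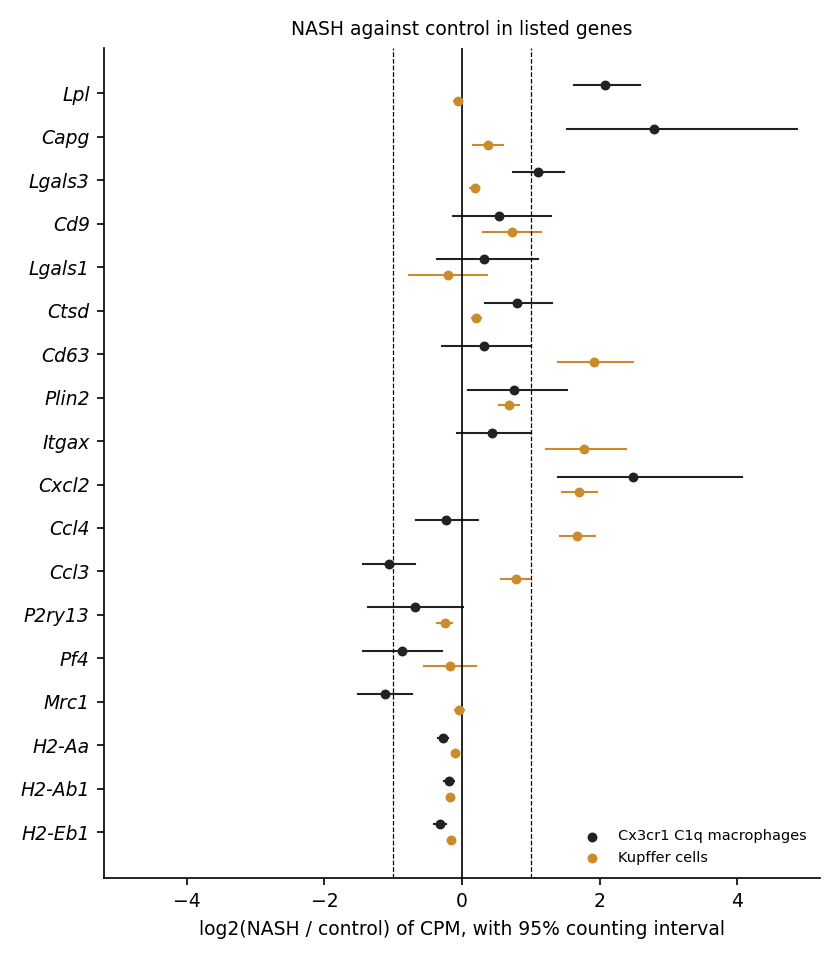
Log2 ratio of NASH over control (horizontal axis) with 95% counting intervals for lipid-associated, chemokine, microglia and class II genes (rows), in members (black) and Kupffer cells (ochre). Lpl was at 2.08 in members and -0.06 in Kupffer cells, the microglia and border genes lay below 0 in members, and the class II genes lay close to 0 in both.

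Among chemokines, some were higher in NASH members and *Ccl3* was lower. *Cxcl2*, a neutrophil attractant, had 79 UMIs from 13 cells in NASH and 6 UMIs from 2 cells in control, a log2 ratio of 2.48 (1.40 to 4.08). *Cxcl9*, an interferon-gamma-induced attractant of T cells, had 100 and 11 UMIs and a ratio of 2.00, but 60 of the 100 came from 1 cell. *Ccl9* had 1.41 and *Ccl5* had 1.16. *Ccl3* had 126 and 120 UMIs and a ratio of -1.06 (-1.43 to -0.69). Without the members above 1% endothelial UMIs the ratio of *Cxcl2* was 4.41 and that of *Cxcl9* was 3.14. Of all control UMIs, 5 of 6 for *Cxcl2* and 7 of 11 for *Cxcl9* came from 1 cell each. These ratios therefore rest on very few control UMIs.

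Genes linked to inflammation and monocytes were higher in part. Of 7 measured inflammatory and NF-kappaB genes 2 were 2-fold higher, and of 7 genes of the monocyte list 2 were. The median log2 ratios of these lists were 0.22 and 0.32. Of 20 transcription factors 1 was 2-fold higher, near the 4.16% over all genes, and of 9 iron and haem genes 1 was. None of these lists had a gene 2-fold lower. *Cebpb*, a transcription factor of myeloid activation, had 169 and 28 UMIs and a log2 ratio of 1.44 (0.88 to 2.09). *Nfkbia*, the inhibitor that NF-kappaB itself induces, had 1.46, and *Hmox1*, the haem-degrading enzyme, had 1.51. *Ly6c2* had 55 and 10 UMIs and 1.27 (0.34 to 2.46), and *F13a1* had 47 and 5 UMIs and 1.98, with 22 of the 47 from 1 cell. *Ccr2* itself had 0.32.

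*Cyp26b1*, which breaks down retinoic acid, was higher in NASH in each of the 3 myeloid groups. It had 109 and 12 UMIs in NASH and control members and a log2 ratio of 2.00 (1.19 to 3.05). The ratio was 1.82 in Kupffer cells and 1.91 in monocytes. *Cfp*, which encodes properdin of the alternative complement pathway, was higher in members, at 1.48, and stood at -0.01 in Kupffer cells.

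Genes of microglia and border macrophages were lower in NASH members. None of 5 measured genes was above 0, and the median log2 ratio was -0.87. *Mrc1*, the mannose receptor, had 111 and 110 UMIs (399 and 866 CPM) and a ratio of -1.12 (-1.51 to -0.73), while in Kupffer cells it had -0.04. *Pf4* had -0.87 (-1.44 to -0.29), and *Mgl2*, a galactose-binding lectin, had -1.24 (-2.11 to -0.39). *Mgl2* was found in only 4 NASH and 6 control members, and 17 of its 24 NASH UMIs came from 1 cell. With *Olfml3* members alone the list's median was -0.26.

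Other genes lower in NASH members included *Cd207* and *Hpgd*. *Hpgd*, which degrades prostaglandins, had 104 and 143 UMIs (374 and 1126 CPM) and a log2 ratio of -1.59 (-1.97 to -1.22), and -0.06 in Kupffer cells. *Fgl2*, a fibrinogen-like immunoregulatory protein, had -1.54, *Neat1*, a nuclear long non-coding RNA, had -1.62, and *Mef2c* had -0.95. In control members 27 of 96 *Fgl2* UMIs and 18 of 59 *Neat1* UMIs came from 1 cell each. *Cd207* had 72 and 67 UMIs and -1.03 (-1.53 to -0.53), from 10 NASH and 7 control cells. Of the genes of the rule, *Cx3cr1* was also lower at -0.63, *Olfml3* at -0.73 and *C1qa* at -0.49, while *Clec4f* was higher. The members were chosen by these genes, so these levels are descriptions.

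The lowest ratios belonged to immunoglobulin genes, which plasma cells make. *Igha* had 8 UMIs in NASH and 46 in control members and a log2 ratio of -3.58, and *Igkc* had 46 and 152 UMIs and -2.85. The same genes had -4.22 and -3.14 in Kupffer cells and -4.00 and -2.67 in endothelial cells. *Igkc* was found in 34 of 69 NASH and in all 30 control members. The difference was thus of like size in cells of other types.

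**Figure D5:**
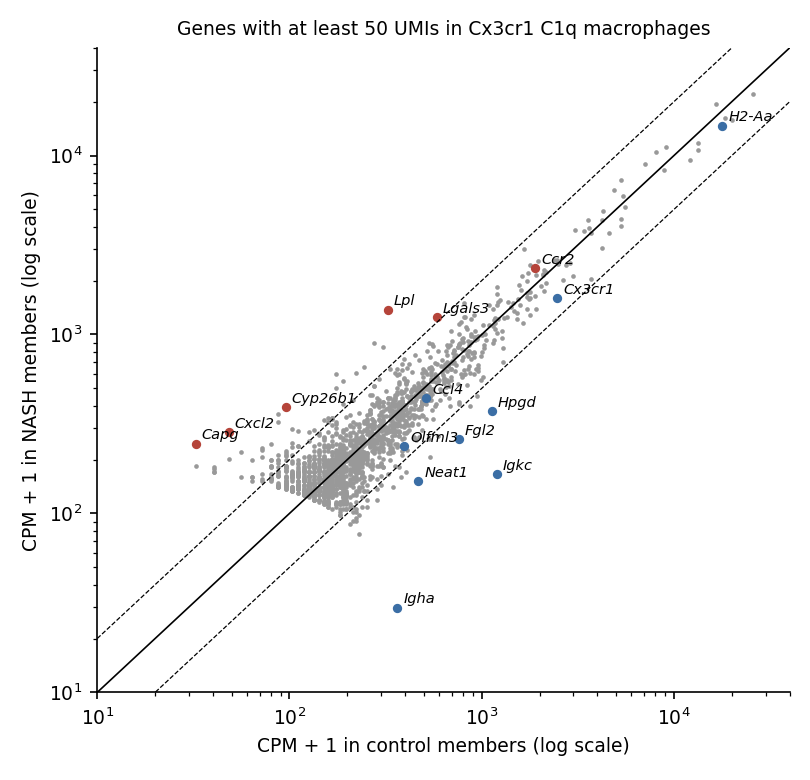
Level of each gene with at least 50 UMIs in members, as CPM + 1 on log axes, NASH (vertical axis) against control (horizontal axis), with a solid line at equal levels and dashed lines at 2-fold. Lpl, Capg and Cxcl2 lie above the upper dashed line, and Igha, Igkc and Hpgd lie below the lower one.

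Antigen presentation genes differed little between diets within the members. *H2-Aa* had a log2 ratio of -0.28 (-0.35 to -0.20), *H2-Ab1* -0.18 (-0.26 to -0.11), *H2-Eb1* -0.32 (-0.40 to -0.23) and *Cd74* -0.22 (-0.28 to -0.15). Of 10 measured genes 1 was above 0 and none reached 2-fold, with a median of -0.20. With *Olfml3* members alone that median was 0.06. Of 18 interferon-stimulated genes *Cxcl9* was 2-fold higher and *Ifit3* 2-fold lower, at -1.13. Over all genes 4.16% were higher and 1.86% lower. For *Cxcl9* 60 of 100 NASH UMIs came from 1 cell, and for *Ifit3* 13 of 30 control UMIs did.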

How the data were processed

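Liver non-parenchymal cells were captured on BD Rhapsody cartridges. Per the study's methods, the authors made the deposited UMI count matrices with the BD Rhapsody whole-transcriptome pipeline v1.8 on GRCm38, with 3 mice pooled per diet. The deposited count tables were used as raw counts. Each held 16383 gene columns, ending at *Rad54l2*, and 12 columns named as dates were left out. NASH columns were named by the control header order. UMIs summed over all cells before filtering, as log2(UMIs + 1), then correlated at 0.973 across genes, against 0.471 with the order shifted by 1 column. Cells with at least 500 UMIs and 200 genes were kept.

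The members, gene lists and divisions were chosen with earlier results of these data known. UMIs were summed per group and library, and log2 CPM ratios (0.5 UMI added, genes with at least 50 UMIs) were given exact binomial 95% intervals, shares exact Clopper-Pearson intervals, both for counting error only. Genes were counted by size, at 2-fold or more, and against other cells only where both libraries passed. Named genes were those of the rule, the 12 highest and lowest per comparison, those of fixed lists with the largest ratios or levels, and the 20 most abundant, and the text gives a choice of them. Genes of single-cell divisions were named after their values were seen. Shares were repeated at 1000 UMIs per cell. Scrublet (scanpy 1.11.5) called 3 of 3710 NASH cells and 56 of 4209 control cells as doublets and no member, and in NASH it hardly worked, so none was removed. Scaling was checked with edgeR 4.0.16 and DESeq2 1.42.0 under R 4.3.3. Ratios were tested on simulated data. Python 3.11.15 was used. Alternatives covered depth, each limit of the rule, the UMI minimum per gene, scaling, thinning, doublets and markers of other cells.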

Additional observations from a re-analysis of the deposited data

Results flagged for a closer look

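A total of 3 genes had opposite differences between diets in the members and in another myeloid group, and none of these differences was tested, since each diet has 1 library. The log2 ratio of NASH over control for *Ly6c2* was 1.27 in members and -1.18 in monocytes, and *Ly6c2* is among the genes that chose the monocytes. For *Mmp13* the ratio was -1.04 in members, with 50 UMIs in NASH and 47 in control and 21 of the 50 from 1 cell, and 3.45 in Kupffer cells. For *Ccl3* it was -1.06 in members and 1.13 in monocytes, with 35 of 126 UMIs in NASH and 35 of 120 in control members from 1 cell each.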

How the results depend on the processing

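With 1 pooled library per diet there was no replicate spread, sums over 69 and 30 cells weigh single deep cells strongly, and about 50 UMIs per gene leave intervals wide. No paired analysis was possible because each diet has 1 library and no ratio comes from a test. Of the shares and gene counts under alternatives, 81 stayed close to the values given and 26 did not. Named genes, list medians and numbers of members in small divisions stayed close in 860 cases and moved in 42.

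Leaving out cells with 3 or more UMIs of another cell type left 5 NASH and 8 control members. Their shares were 3.85% and 4.28%, a ratio of 0.899. In NASH members 1 gene was higher and 3 were lower. Against Kupffer cells 11 genes were higher and 39 lower, and against monocytes 14 were higher and 42 lower. Few cells and genes remained under this limit, and the part of free RNA in it was not tested. With genes from 20 UMIs on, 230 were higher and 150 lower in NASH members, 330 were higher than in Kupffer cells, and 193 were higher and 228 lower than in monocytes. With genes from 100 UMIs on, these were 18, 9, 104, 48 and 82. Without members holding *Ly6c2*, *F13a1* or *Chil3*, 27 genes were higher and 19 lower in NASH, and with *Olfml3* members alone 16 were higher. These last choices, and the 1% endothelial limit, were made after seeing the data. With cells thinned to 1500 UMIs the shares were 3.22% and 1.15% of cells that deep. Without thinning, members were 10.2% and 5.15% of C1q cells. The ratio of shares was 1.97 to 2.81 under every alternative except the one at 0.899.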
